A study of Homo sapiens with 8 samples.

Results

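The genes described here encode the oxidising, hydrolysing and conjugating enzymes by which liver cells handle foreign compounds, steroids, fatty acids and aldehydes. They were taken by symbol: every gene whose name begins with CYP, UGT, SULT, GST (classes A, M, O, P, T, Z and K), MGST, EPHX, ALDH or FMO followed by a digit, apart from CYP51A1 and ALDH1L2. That left 64 of the 11818 genes with values, namely 20 CYP, 9 UGT, 5 SULT, 14 GST and MGST, 3 EPHX and FMO, and 13 ALDH genes. All 64 met the minimum for testing, which was a deposited value of 1 or more in 4 or more libraries.

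Detoxification is commonly described in phases. Cytochromes P450 (CYP), flavin monooxygenases (FMO), epoxide hydrolases (EPHX) and aldehyde dehydrogenases (ALDH) introduce or uncover a reactive group, and UDP-glucuronosyltransferases (UGT), sulfotransferases (SULT) and glutathione S-transferases (GST, and the membrane-bound MGST) then attach glucuronic acid, sulfate or glutathione. Hepatocytes are the main site of these reactions. Many of the genes answer to ligand-activated transcription factors such as the aryl hydrocarbon receptor, the pregnane X receptor and the farnesoid X receptor, or to the oxidant-responsive factor NRF2.

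The study asked what changes downstream when the circular RNA circPTK2 is silenced in HCCLM3, an established metastatic hepatocellular carcinoma cell line. The 4 siRNA libraries came from HCCLM3 cells labelled circPTK2 knock down, and the 4 NC libraries from HCCLM3 cells labelled WT. The treatment described is transient transfection of an siRNA against circPTK2. It is given in the same words for the samples of both groups, so it does not tell how the NC cells were treated. Both groups were grown in DMEM with 10% fetal bovine serum, and poly(A) RNA was sequenced. What NC stands for, whether those cells were given a control siRNA and which culture each library came from are not stated in the labels.

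Reads recovered from the deposited values came to between 28077305 and 32532669 in siRNA libraries and between 37087203 and 43512175 in NC libraries. The deposited signal is scaled, so that 1 read is worth 0.0308 to 0.0362 in siRNA libraries and 0.0217 to 0.0269 in NC libraries. The NC libraries stood in pairs: Spearman correlations across genes were 0.990 to 0.995 among siRNA libraries and 0.985 to 0.987 for NC 1 with 2 and NC 3 with 4, but 0.920 to 0.938 between these pairs. Each gene was therefore also compared with either NC pair alone, and where a named gene passed against only 1 pair this is said. The pairs were seen in these same data, and both fits use the same 4 siRNA libraries. Such a fit leaves out the spread between the NC pairs, so its p-values can be too small. Of all genes tested 57.8% were called against NC replicates 1 and 2 and 65.9% against NC replicates 3 and 4, but 42.5% with all libraries. Mitochondrial transcripts took 4.39% to 5.59% of the values of siRNA libraries, 5.32% and 5.01% in NC replicates 1 and 2, and 1.96% and 2.19% in NC replicates 3 and 4; the part of this difference in the results was not tested. Of 10 hepatocyte markers 7 had values: ALB, SERPINA1 and HNF4A were higher in siRNA libraries, FGB, TF and APOB lower, and APOH was not called, while APOA1, TTR and AHSG were not analysed here. SERPINA1 reached the minimum for testing through the siRNA libraries alone, and FGB and APOB through the NC libraries alone. Summed over the list, hepatocyte markers ranged from 103 to 136 in siRNA libraries and from 88.05 to 139.9 in NC libraries. The liver carcinoma marker AFP averaged 1.81 ± 0.737 in siRNA libraries and 3.78 ± 0.938 in NC libraries (SD, n = 4 each), and was lower with all libraries (log2 change -0.78, limma adjusted p = 0.0209) but not called against NC replicates 1 and 2 alone (log2 change -0.55, limma adjusted p = 0.0772). Of the epithelial markers KRT8 was lower (log2 change -0.93, limma adjusted p = 0.0207), and KRT18 and CDH1 were not called, KRT18 being higher against NC replicates 1 and 2 alone (log2 change 0.29, limma adjusted p = 0.011). The endothelial marker PECAM1 was lower in siRNA libraries (log2 change -1.43, limma adjusted p = 0.00248), the immune marker CD68 was not called, and the other 9 endothelial, immune and fibroblast markers were not analysed here. In bulk RNA a gene expressed by fewer cells and a gene with less RNA per cell cannot be told apart.

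The detoxification genes changed in both directions. In the siRNA libraries 15 of the 64 rose and 20 fell past the limma threshold, a Benjamini-Hochberg adjusted p under 0.05 over all 11812 genes tested, and 29 did not pass. The rises were led by CYP2B6, UGT1A1, CYP1A1, UGT2A3 and CYP2C18, and the falls by UGT1A9, CYP4F3, CYP4F11, ALDH5A1 and GSTA2. The background was high: 42.5% of all genes tested were called, 21.7% higher and 20.8% lower, against 54.7% of the detoxification genes. These shares are also the background for the counts by enzyme group below. The called share was 55% of CYP, 53.8% of ALDH, 50% of GST and MGST and 33.3% of UGT genes. It was 80% of the 5 SULT and 100% of the 3 EPHX and FMO genes. The SULT share and the count of falls hold SULT1A3 and SULT1A4 separately, though their reads cannot be told apart. The median log2 change was -0.12 over the detoxification genes and 0.012 over all genes tested, and it was 0.088 over the detoxification genes against NC replicates 1 and 2 alone. Changes of at least 1 on the log2 scale were called for 8 genes in the upward and 13 in the downward direction, 21 of 64, where 12.2% of all genes tested had such a call. Because 1 was added to each value before the log, log2 changes of low genes are too small. Fold values are ratios of group means of the deposited signal. Groups without overlap were found for 16 genes in the upward and 19 in the downward direction, where 22.4% and 20.9% of all genes, 43.3% together, had none.

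**Figure D1:**
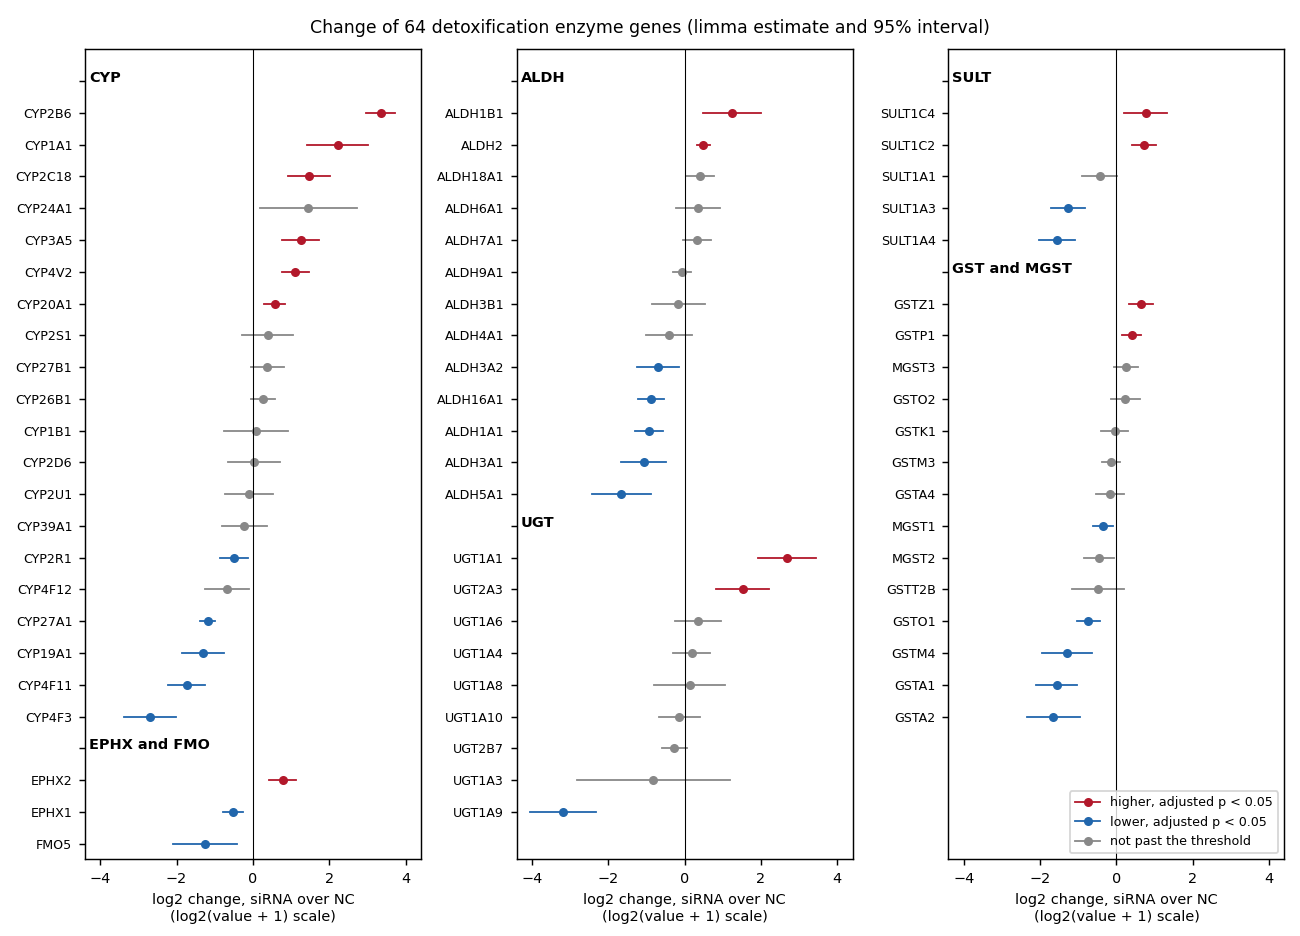
Log2 change of each of the 64 detoxification genes, siRNA over NC libraries (limma estimate on log2(value + 1), 95% interval, n = 4 each), by enzyme group. Red points are the 15 genes called higher, blue points the 20 called lower and grey points the 29 that did not pass, with CYP2B6 at 3.35 and UGT1A9 at -3.19 at the ends.

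Among the 7 CYP genes of xenobiotic metabolism 4 rose and 0 fell, and the median log2 change of the 7 was 1.25. CYP2B6, which hydroxylates drugs such as bupropion and cyclophosphamide, lies at chr19:40991250-41018398, plus strand (GRCh38). Its level was 17.6, 18.4, 15.9 and 19.1 in siRNA replicates 1 to 4, against 0.368, 1.05, 0.953 and 1.08 in NC replicates 1 to 4. Every siRNA library lay far above every NC library, and the means of 17.8 ± 1.37 in siRNA libraries and 0.864 ± 0.335 in NC libraries (SD, n = 4 each) differed 20.6-fold. The log2 change was 3.35 ± 0.17 (SE; limma adjusted p = 5.08e-06). The NC values rested on 14, 39, 44 and 44 reads, and the siRNA values on 494 to 565. CYP2B6 was also apart from each NC pair taken alone (log2 change 3.48, limma adjusted p = 6.44e-07 against NC replicates 1 and 2, and log2 change 3.21, limma adjusted p = 3.44e-08 against NC replicates 3 and 4).

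CYP1A1, which oxidises polycyclic aromatic hydrocarbons and is the classical target of the aryl hydrocarbon receptor, lies at chr15:74719542-74725610, minus strand. It stood at 22.2, 24.7, 20.1 and 25.5 in siRNA replicates 1 to 4, against 1.71, 2.91, 7.41 and 6.97 in NC replicates 1 to 4. The groups did not overlap, but the NC pairs differed, with NC replicates 3 and 4 above NC replicates 1 and 2. The log2 change was 2.22 ± 0.35 (SE; limma adjusted p = 0.0013), and it was 2.89 against NC replicates 1 and 2 and 1.55 against NC replicates 3 and 4. CYP1B1, the related enzyme that hydroxylates estradiol and the same hydrocarbons, was not called. Its values were 50.6, 50.4, 85.8 and 89.3 in siRNA replicates 1 to 4, against 61.7, 31.9, 68.3 and 114 in NC replicates 1 to 4, and the groups overlapped widely (log2 change 0.085, limma adjusted p = 0.872, 95% interval -0.74 to 0.91).

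The 300 bases around the start sites of CYP2B6 and CYP1A1 are shown because these CYP genes had the largest rises and each holds a different searched motif. They are the RefSeq GRCh38.p14 windows of 250 bases before to 50 after the start, 5′ to 3′ on the strand of the gene (chr19:40991032-40991331, plus strand, and chr15:74725479-74725778, minus strand).
CYP2B6: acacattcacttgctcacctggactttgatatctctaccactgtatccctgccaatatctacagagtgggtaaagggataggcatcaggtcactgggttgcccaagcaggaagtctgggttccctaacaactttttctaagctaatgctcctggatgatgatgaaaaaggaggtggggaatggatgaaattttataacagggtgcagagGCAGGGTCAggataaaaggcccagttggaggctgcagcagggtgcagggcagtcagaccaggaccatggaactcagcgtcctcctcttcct
CYP1A1: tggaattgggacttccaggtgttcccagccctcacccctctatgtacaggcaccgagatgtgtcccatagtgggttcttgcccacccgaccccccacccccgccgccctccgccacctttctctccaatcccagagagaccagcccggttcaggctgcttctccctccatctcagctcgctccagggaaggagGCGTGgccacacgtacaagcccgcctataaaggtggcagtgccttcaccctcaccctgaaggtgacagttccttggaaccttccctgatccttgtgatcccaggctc
Capitals in the CYP2B6 window mark the letters that match TGACNNNGC, the core of the antioxidant response element, on the opposite strand, starting at position -41. Capitals in the CYP1A1 window mark GCGTG, the core of the aryl hydrocarbon receptor element, at position -57. A match is a description of the letters and not a shown binding site.

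CYP3A5, which oxidises tacrolimus and many other drugs, was the most abundant of the rising xenobiotic genes per kilobase of exon, at 7.99 in siRNA and 3.42 in NC libraries. Its level was 53.96, 56.2, 55.7 and 50.3 in siRNA replicates 1 to 4, against 24.1, 34.2, 15.8 and 18.1 in NC replicates 1 to 4. No siRNA value fell within the NC range, the siRNA values were close together, and the log2 change was 1.25 ± 0.21 (SE; limma adjusted p = 0.00188). CYP2C18, a member of the drug-metabolising 2C subfamily, stood at 9.76, 9.08, 9.99 and 11.1 in siRNA replicates 1 to 4, against 2.29, 4.82, 3.73 and 1.65 in NC replicates 1 to 4. The log2 change of CYP2C18 was 1.48 ± 0.24 (SE; limma adjusted p = 0.00154) with no overlap, but 38.5% of its exonic bases are annotated for an overlapping transcript on the same strand, and how reads there were counted is not given in the sources used here. CYP2S1 and the drug hydroxylase CYP2D6 were not called (log2 change 0.39, limma adjusted p = 0.314, and log2 change 0.031, limma adjusted p = 0.946). CYP2S1 was split by the NC pairs: it was above NC replicates 1 and 2 (log2 change 0.96, limma adjusted p = 0.000133) and not apart from NC replicates 3 and 4 (log2 change -0.17, limma adjusted p = 0.212).

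The CYP genes of fatty acids and eicosanoids went both ways, with 1 of 5 higher and 2 lower. CYP4F3, the omega-hydroxylase that inactivates leukotriene B4, stood at 7.34, 5.66, 9.804 and 9.22 in siRNA replicates 1 to 4, against 67.5, 93.04, 45.1 and 34.98 in NC replicates 1 to 4. Every siRNA library was below every NC library, 7.51-fold by the means, and the log2 change was -2.69 ± 0.30 (SE; limma adjusted p = 0.000222). CYP4F11, its neighbour on chromosome 19 and a hydroxylase of long-chain fatty acids and vitamin K, stood at 39.1, 43.2, 36.9 and 39.7 in siRNA replicates 1 to 4, against 120.4, 208, 139 and 94.5 in NC replicates 1 to 4. CYP4F11 was 3.54-fold lower with no overlap, and NC replicate 2 was the highest library for both genes (log2 change -1.74, limma adjusted p = 0.000365). CYP4F12, the next member of the cluster, was not called with all 8 libraries (log2 change -0.67, limma adjusted p = 0.0602) and was lower against NC replicates 3 and 4 alone (log2 change -1.01, limma adjusted p = 0.00208).

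CYP4V2, a fatty acid omega-hydroxylase whose loss causes a crystalline retinal dystrophy, rose. Its level was 4.096, 3.35, 3.61 and 5.02 in siRNA replicates 1 to 4, against 0.973, 1.26, 1.37 and 1.65 in NC replicates 1 to 4, low but without overlap, and the log2 change was 1.11 ± 0.16 (SE; limma adjusted p = 0.000764). CYP2U1, another long-chain fatty acid hydroxylase, did not exceed 2.17 in any library and was not called (log2 change -0.097, limma adjusted p = 0.804). CYP20A1, which has no established substrate, rose modestly (log2 change 0.57, limma adjusted p = 0.00526), with siRNA libraries between 12.5 and 12.8 and NC libraries between 7.43 and 9.84.

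Of the 7 CYP genes that act on sterols, vitamin D and retinoids 0 rose and 3 fell. CYP27A1, the mitochondrial sterol 27-hydroxylase of bile acid synthesis, stood at 33.6, 33.4, 32.7 and 37.3 in siRNA replicates 1 to 4, against 73.6, 81.8, 85.01 and 76.9 in NC replicates 1 to 4. The replicates of both groups were tight, the groups were far apart, and the log2 change was -1.19 ± 0.0913 (SE; limma adjusted p = 3.88e-05), with nearly the same size against either NC pair (-1.16 and -1.22). CYP19A1, the aromatase that makes oestrogens from androgens, stood at 0.214, 0.2603, 0.493 and 0.361 in siRNA replicates 1 to 4, against 1.63, 1.64, 4.53 and 2.09 in NC replicates 1 to 4. These are low values, from 6 to 16 reads per siRNA library and 61 to 209 per NC library (log2 change -1.31, limma adjusted p = 0.003). CYP19A1 reached the minimum for testing through the NC libraries alone. That its groups did not overlap is therefore no added support. CYP2R1, a vitamin D 25-hydroxylase, passed narrowly (log2 change -0.50, limma adjusted p = 0.0386) and no longer did so without any siRNA library, without NC replicate 1 or 2, or with the replicate number as a block. Against NC replicates 3 and 4 alone CYP2R1 was not called (log2 change -0.29, limma adjusted p = 0.13).

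CYP24A1, which degrades active vitamin D, showed how much a gene could depend on the NC pair. Its level was 6.05, 7.91, 7.55 and 6.62 in siRNA replicates 1 to 4, against 0.105, 0.726, 7.26 and 3.69 in NC replicates 1 to 4. The siRNA libraries were alike, whereas NC replicates 1 and 2 were near 0 (4 and 27 reads) and NC replicate 3 was inside the siRNA range. With all NC libraries the log2 change was 1.45 ± 0.56 (SE; limma adjusted p = 0.0656). Against NC replicates 1 and 2 it was called (log2 change 2.53, limma adjusted p = 7.85e-06), and against NC replicates 3 and 4 it was not (log2 change 0.36, limma adjusted p = 0.168). Without NC replicate 3 the change was 1.95 (limma adjusted p = 0.00953). CYP26B1 (retinoic acid), CYP27B1 (vitamin D activation) and CYP39A1 (oxysterols) were not called, with log2 changes of 0.27, 0.38 and -0.23. Against NC replicates 3 and 4 alone CYP27B1 was higher (log2 change 0.65, limma adjusted p = 0.00848) and CYP39A1 lower (log2 change -0.66, limma adjusted p = 0.015), and neither was called against NC replicates 1 and 2.

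**Figure D2:**
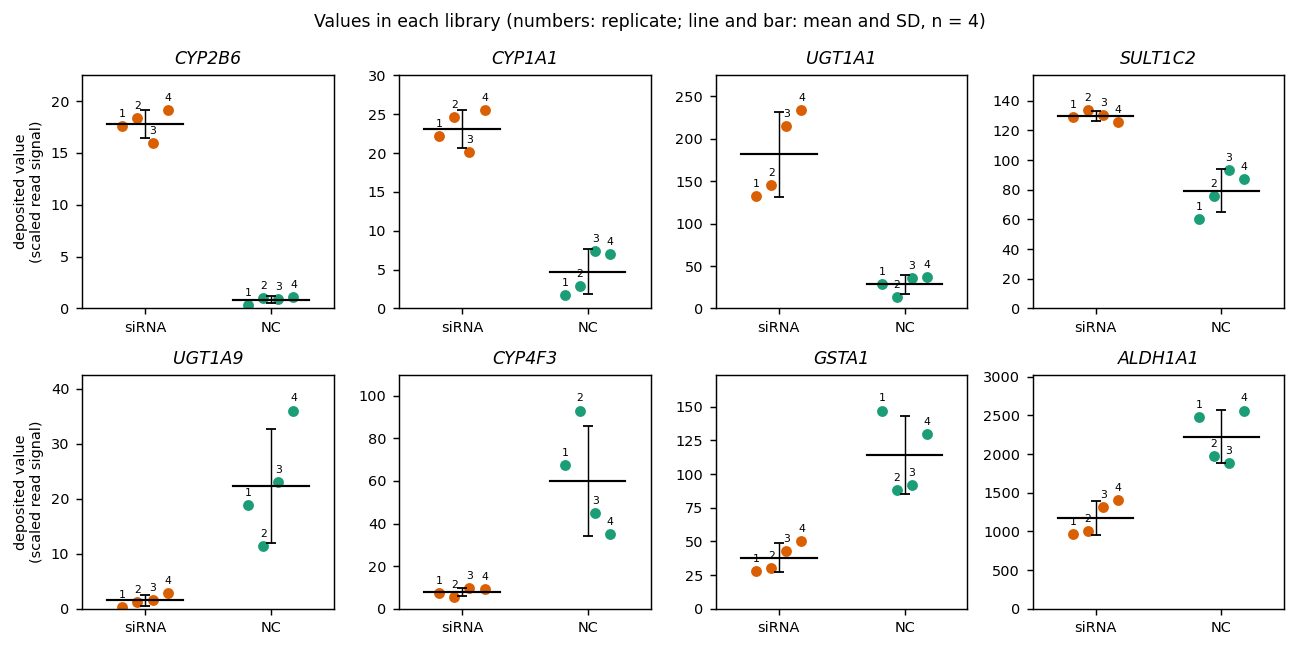
Deposited value in each library for 4 genes called higher (top) and 4 called lower (bottom). Points are libraries, numbered by replicate, and lines and bars give the mean and SD (n = 4 each). The siRNA and NC points are separate in all 8 panels.

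All 3 EPHX and FMO genes were called. EPHX1, the microsomal epoxide hydrolase, was exceeded per kilobase of exon by ALDH1A1 alone in siRNA libraries (104 in siRNA and 151 in NC libraries). This rank rests on all annotated exons joined. By the length of the longest coding transcript MGST1 and, narrowly, ALDH3A1 would be above EPHX1 in siRNA libraries as well. EPHX1 stood at 239.6, 239, 273 and 292 in siRNA replicates 1 to 4, against 426, 411, 328 and 347 in NC replicates 1 to 4. EPHX1 fell without overlap, by a small amount (log2 change -0.53, limma adjusted p = 0.0068). EPHX2, the soluble hydrolase that opens epoxides of arachidonic acid, went the other way, at 2.74, 1.98, 3.11 and 2.89 in siRNA replicates 1 to 4, against 0.894, 1.02, 1.17 and 1.502 in NC replicates 1 to 4 (log2 change 0.78, limma adjusted p = 0.00453). The groups did not overlap, and no library was above 3.11. FMO5, a flavin monooxygenase that inserts oxygen next to carbonyl groups, stood at 8.01, 8.85, 9.77 and 9.83 in siRNA replicates 1 to 4, against 15.7, 12.1, 30.1 and 47.1 in NC replicates 1 to 4. NC replicates 3 and 4 were far above NC replicates 1 and 2, and although all siRNA libraries were below all NC libraries (log2 change -1.25, limma adjusted p = 0.0243), the call was lost when NC replicate 3 was left out (limma adjusted p = 0.0572) or any siRNA library (0.0505 to 0.0651).

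Among 13 ALDH genes 2 rose, 5 fell and 6 did not pass. ALDH1A1, which makes retinoic acid from retinaldehyde and is used as a marker of tumour-initiating cells, was the most abundant of the 64 genes per kilobase of exon, at 411 in siRNA and 781 in NC libraries. Its level was 968, 999, 1314 and 1399.9 in siRNA replicates 1 to 4, against 2478, 1974, 1884 and 2563 in NC replicates 1 to 4. It was 1.901-fold lower in siRNA libraries without overlap, and the log2 change was -0.93 ± 0.16 (SE; limma adjusted p = 0.00213). Alone it made up 22.8% to 26.2% of the summed value of the 64 genes in siRNA libraries and 29.4% to 39.1% in NC libraries. The 64 genes together took 0.417% to 0.526% of all values in siRNA libraries and 0.528% to 0.789% in NC libraries. Without ALDH1A1 these shares were 0.322% to 0.388% in siRNA and 0.345% to 0.508% in NC libraries, and the ranges then overlapped.

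ALDH3A1, a stress-inducible enzyme for aromatic and lipid-derived aldehydes, stood at 248, 259, 279 and 344 in siRNA replicates 1 to 4, against 456, 387, 855 and 803 in NC replicates 1 to 4. ALDH3A2, the fatty aldehyde dehydrogenase next to it on chromosome 17, stood at 116, 119.9, 147 and 149 in siRNA replicates 1 to 4, against 167, 147, 275 and 309 in NC replicates 1 to 4. For both, NC replicates 3 and 4 were above NC replicates 1 and 2, so the size of the fall depended on the pair. ALDH3A1 was lower against either pair (log2 change -1.07, limma adjusted p = 0.0106 with all libraries). ALDH3A2 was the only called gene of the 64 whose groups overlapped (log2 change -0.69, limma adjusted p = 0.0452). Against NC replicates 1 and 2 alone ALDH3A2 was not called (log2 change -0.25, limma adjusted p = 0.104), and its adjusted p was 0.0682 to 0.114 without any of the siRNA libraries, 0.103 without NC replicate 3 and 0.0916 without NC replicate 4.

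ALDH5A1, which clears succinic semialdehyde in the breakdown of GABA, had the largest fall in the group. It stood at 5.41, 4.23, 6.197 and 8.42 in siRNA replicates 1 to 4, against 16.3, 11.7, 26.00 and 37.3 in NC replicates 1 to 4, 3.77-fold lower with no overlap (log2 change -1.66, limma adjusted p = 0.00462). ALDH16A1 also fell (log2 change -0.89, limma adjusted p = 0.00175), with siRNA libraries between 33.5 and 38.2 and NC libraries between 52.3 and 84.9.

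The 2 genes of the group that rose were ALDH2 and ALDH1B1. ALDH2, the main enzyme of acetaldehyde removal after ethanol, stood at 315, 319.5, 319.8 and 339 in siRNA replicates 1 to 4, against 219, 239.7, 241 and 224 in NC replicates 1 to 4 and rose by a narrow and regular margin (log2 change 0.49, limma adjusted p = 0.00129). ALDH1B1, its mitochondrial relative, stood at 134, 131, 147 and 156 in siRNA replicates 1 to 4, against 44.1, 33.7, 68.3 and 119 in NC replicates 1 to 4. All siRNA libraries exceeded all NC libraries, and NC replicate 4 came nearest (log2 change 1.25, limma adjusted p = 0.0158). ALDH18A1 of proline synthesis was higher in every siRNA library than in any NC library, at 123 to 133 against 75.1 to 123, yet did not pass (log2 change 0.40, limma adjusted p = 0.071). ALDH3B1, ALDH4A1, ALDH6A1, ALDH7A1 and ALDH9A1 did not pass, with log2 changes between -0.41 and 0.34. Against NC replicates 1 and 2 alone ALDH18A1 and ALDH7A1 were higher (log2 change 0.68, limma adjusted p = 5.15e-05, and log2 change 0.58, limma adjusted p = 0.0019). Against NC replicates 3 and 4 alone ALDH4A1 and ALDH9A1 were lower (log2 change -0.83, limma adjusted p = 0.000843, and log2 change -0.22, limma adjusted p = 0.0375). An overlapping transcript on the same strand covers 41.1% of the exonic bases of ALDH4A1.

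Among 9 UGT genes 2 rose, 1 fell and 6 did not pass. The 7 UGT1A genes are transcripts of a single locus at chr2:233617645-233773310 (GRCh38), each with its own first exon and start site and with the remaining exons in common. Between 44.0% and 80.0% of their exonic bases are shared with another gene on the same strand, so reads from the common exons cannot be assigned and how the counting treated them is not given in the sources used here. The values below are therefore uncertain as levels of single isoforms.

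UGT1A1, the enzyme that conjugates bilirubin, lies at chr2:233760248-233773299, plus strand. It stood at 133, 146, 215 and 234 in siRNA replicates 1 to 4, against 28.6, 12.9, 35.9 and 37.3 in NC replicates 1 to 4. The lowest siRNA library was far above the highest NC library, siRNA replicates 3 and 4 were above siRNA replicates 1 and 2, and the log2 change was 2.68 ± 0.33 (SE; limma adjusted p = 0.000403). UGT1A9, which conjugates phenolic drugs such as propofol, lies at chr2:233671853-233773300, plus strand. It moved the opposite way, at 0.392, 1.27, 1.57 and 2.86 in siRNA replicates 1 to 4, against 18.8, 11.4, 23.1 and 36.1 in NC replicates 1 to 4. Its means of 1.52 ± 1.02 in siRNA libraries and 22.3 ± 10.4 in NC libraries (SD, n = 4 each) gave a 14.7-fold lower level, the largest fall of the 64 genes, with a log2 change of -3.19 ± 0.38 (SE; limma adjusted p = 0.000342). The siRNA values of UGT1A9 rested on 11, 39, 51 and 79 reads, against 715, 423, 1066 and 1465 in NC replicates 1 to 4. Both calls held against either NC pair.

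The windows at the start sites of UGT1A1 and UGT1A9 are shown because the values of these genes of the same locus changed in opposite directions. Each gene has its own start site (RefSeq GRCh38.p14, chr2:233760020-233760319, plus strand, and chr2:233671648-233671947, plus strand). The part of the promoters in the changes was not tested.
UGT1A1: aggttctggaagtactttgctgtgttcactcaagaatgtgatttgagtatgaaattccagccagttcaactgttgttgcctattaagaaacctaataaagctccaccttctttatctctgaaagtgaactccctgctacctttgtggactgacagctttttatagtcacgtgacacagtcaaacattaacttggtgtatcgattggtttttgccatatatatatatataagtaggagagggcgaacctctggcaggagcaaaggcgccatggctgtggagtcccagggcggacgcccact
UGT1A9: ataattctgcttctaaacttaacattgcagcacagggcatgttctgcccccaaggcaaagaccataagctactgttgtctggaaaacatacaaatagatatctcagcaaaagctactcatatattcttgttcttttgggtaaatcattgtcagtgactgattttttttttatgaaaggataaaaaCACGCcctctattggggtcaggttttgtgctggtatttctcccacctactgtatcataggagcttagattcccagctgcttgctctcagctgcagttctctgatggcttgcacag
Capitals in the UGT1A9 window mark the reverse complement of GCGTG, starting at position -65. The UGT1A1 window has neither searched motif. Position by position the windows are identical at 81 of 300 bases, 27.0%, whereas the windows of UGT1A3 and UGT1A4 are identical at 87.7%.

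The other UGT1A genes did not pass. UGT1A10, known best from the intestine, was the most abundant UGT gene per kilobase, at 76.1 in siRNA and 84.5 in NC libraries. It stood at 181, 192, 284 and 304 in siRNA replicates 1 to 4, against 342, 191, 221 and 313 in NC replicates 1 to 4, with wide overlap (log2 change -0.15, limma adjusted p = 0.647). UGT1A6, which conjugates small planar phenols, stood at 49.4, 54.9, 71.3 and 69.3 in siRNA replicates 1 to 4, against 64.4, 28.01, 43.2 and 63.2 in NC replicates 1 to 4 (log2 change 0.35, limma adjusted p = 0.311). UGT1A8, another intestinal form, stood at 43.1, 19.00, 67.9 and 65.4 in siRNA replicates 1 to 4, against 34.1, 25.6, 49.8 and 57.6 in NC replicates 1 to 4 (log2 change 0.13, limma adjusted p = 0.818). Both overlapped between groups, and UGT1A8 was lowest in siRNA replicate 2 and highest in siRNA replicate 3. UGT1A4, which makes N-glucuronides of amines, stayed low, at 2.28, 3.29, 3.92 and 3.36 in siRNA replicates 1 to 4, against 3.89, 2.48, 1.67 and 2.95 in NC replicates 1 to 4 (log2 change 0.19, limma adjusted p = 0.511). UGT1A3, an enzyme for bile acids and oestrogens, stood at 0.855, 0.3905, 0.987 and 16.5 in siRNA replicates 1 to 4, against 2.05, 1.16, 9.47 and 11.8 in NC replicates 1 to 4. A single siRNA library, replicate 4, held 456 reads of UGT1A3 where the other siRNA libraries held 24, 12 and 32, so the log2 change of -0.83 ± 0.88 (SE; limma adjusted p = 0.481) has a wide interval, -2.83 to 1.17.

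As shares of the summed UGT1A values, UGT1A1 made up 32.4%, 35.0%, 33.3% and 33.6% in siRNA replicates 1 to 4, against 5.79%, 4.73%, 9.33% and 7.16% in NC replicates 1 to 4. UGT1A10 made up 43.8% to 46.1% in siRNA libraries and 57.6% to 70.1% in NC libraries, and UGT1A9 0.0955% to 0.411% in siRNA libraries and 3.81% to 6.91% in NC libraries. The groups did not overlap in any of these shares. The summed UGT1A value itself overlapped, at 410.2, 416, 644 and 695 in siRNA replicates 1 to 4 and 493, 273, 385 and 522 in NC replicates 1 to 4.

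**Figure D3:**
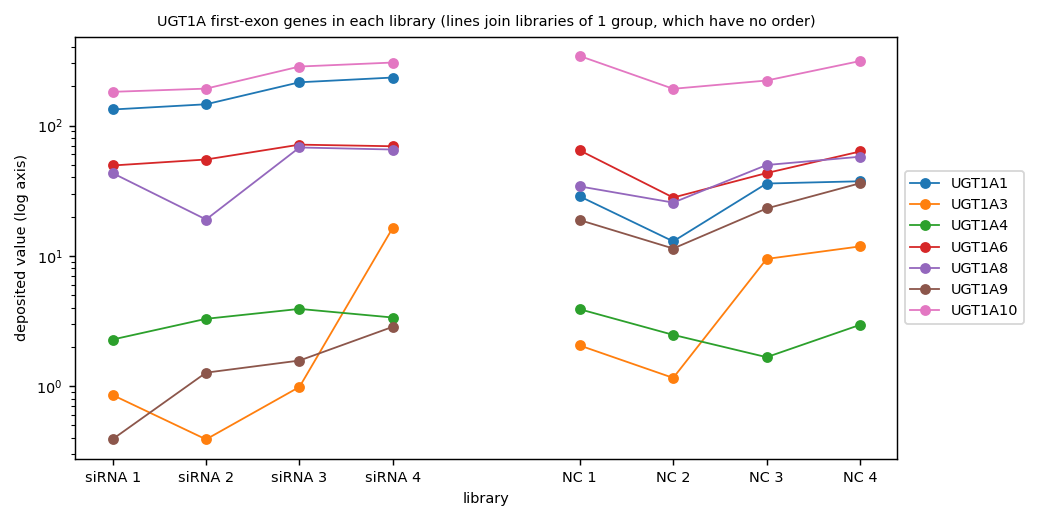
Deposited values (log axis) of the 7 UGT1A genes in each library, siRNA replicates 1 to 4 at left and NC replicates 1 to 4 at right; lines join libraries of a group and imply no order. UGT1A1 lies between 133 and 234 in siRNA and 12.9 and 37.3 in NC libraries, UGT1A9 between 0.392 and 2.86 in siRNA and 11.4 and 36.1 in NC libraries.

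UGT2A3, which can glucuronidate bile acids, rose. It stood at 1.85, 1.76, 3.58 and 5.13 in siRNA replicates 1 to 4, against 0.263, 0.108, 0.173 and 1.01 in NC replicates 1 to 4, with no overlap and 4 to 41 reads in the NC libraries (log2 change 1.52, limma adjusted p = 0.00424). UGT2B7, the main enzyme for morphine and a neighbour of UGT2A3 on chromosome 4, was not called (log2 change -0.27, limma adjusted p = 0.157), and against NC replicates 3 and 4 alone it was lower (log2 change -0.45, limma adjusted p = 0.00158).

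Of 5 SULT genes 2 rose, both of the 1C subfamily, and 2 fell, both of the 1A subfamily. SULT1C2, which sulfates phenols, was the highest SULT gene per kilobase at 15.4 in siRNA and 9.46 in NC libraries. It stood at 129, 134, 131 and 125 in siRNA replicates 1 to 4, against 60.5, 76.1, 93.6 and 87.6 in NC replicates 1 to 4. The siRNA libraries were within a narrow band above all NC libraries (log2 change 0.72, limma adjusted p = 0.00297). Its neighbour SULT1C4 also rose (log2 change 0.76, limma adjusted p = 0.0333), at 1.52 to 2.74 in siRNA libraries and 0.316 to 1.37 in NC libraries. The SULT1C4 call was lost with edgeR on the recovered reads, under the replicate block and without NC replicate 1 or 4 or siRNA replicate 1, 2 or 3.

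SULT1A3 and SULT1A4 fell. They are near-identical copies on chromosome 16 for a sulfotransferase of dopamine and other catecholamines, and 98.6% and 99.01% of their 75-base stretches occur in other genes, so their reads cannot be told apart. Their 2 falls are therefore not separate results. SULT1A3 stood at 6.05, 6.09, 5.98 and 5.89 in siRNA replicates 1 to 4, against 10.5, 14.9, 20.96 and 19.2 in NC replicates 1 to 4 (log2 change -1.27, limma adjusted p = 0.00125). SULT1A4 stood at 3.49, 6.02, 5.92 and 4.699 in siRNA replicates 1 to 4, against 13.5, 13.8, 20.8 and 19.00 in NC replicates 1 to 4 (log2 change -1.56, limma adjusted p = 0.000491). Their sum, which does not depend on how reads were split between them, was 9.55, 12.1, 11.9 and 10.6 in siRNA replicates 1 to 4 and 24.0, 28.7, 41.8 and 38.3 in NC replicates 1 to 4, again without overlap. The sum still depends on how reads shared with other genes were counted. Other genes on the same strand cover 70.7% of the exonic bases of SULT1A3 and 85.2% of those of SULT1A4. SULT1A1, the general phenol sulfotransferase, stood at 3.35, 2.12, 4.01 and 3.29 in siRNA replicates 1 to 4, against 3.87, 3.66, 4.98 and 6.23 in NC replicates 1 to 4, with overlap and no call (log2 change -0.44, limma adjusted p = 0.112), though SULT1A1 was lower against NC replicates 3 and 4 alone (log2 change -0.67, limma adjusted p = 0.0153).

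Of 14 GST and MGST genes 2 rose, 5 fell and 7 did not pass. The largest falls were in the alpha class, the GSTs that adult hepatocytes express most. GSTA1 stood at 28.4, 30.1, 42.9 and 50.6 in siRNA replicates 1 to 4, against 147, 88.1, 91.97 and 129.8 in NC replicates 1 to 4. Every siRNA library was below every NC library, 3.01-fold by the means, with a log2 change of -1.57 ± 0.23 (SE; limma adjusted p = 0.000946). GSTA2 stood at 1.89, 1.66, 4.81 and 4.23 in siRNA replicates 1 to 4, against 10.8, 8.69, 10.3 and 16.7 in NC replicates 1 to 4, 3.69-fold lower with no overlap (log2 change -1.65, limma adjusted p = 0.00274). In both genes siRNA replicates 3 and 4 exceeded siRNA replicates 1 and 2. GSTA4, the alpha-class enzyme for 4-hydroxynonenal in the same cluster, stood apart from them: it was not called (log2 change -0.16, limma adjusted p = 0.435) at 10.7 to 16.8 in siRNA and 13.9 to 17.7 in NC libraries.

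The GSTA1 and GSTA2 promoter windows are shown because these neighbours fell by similar amounts and their start regions are nearly the same sequence (RefSeq GRCh38.p14, chr6:52803767-52804066, minus strand, and chr6:52763426-52763725, minus strand).
GSTA1: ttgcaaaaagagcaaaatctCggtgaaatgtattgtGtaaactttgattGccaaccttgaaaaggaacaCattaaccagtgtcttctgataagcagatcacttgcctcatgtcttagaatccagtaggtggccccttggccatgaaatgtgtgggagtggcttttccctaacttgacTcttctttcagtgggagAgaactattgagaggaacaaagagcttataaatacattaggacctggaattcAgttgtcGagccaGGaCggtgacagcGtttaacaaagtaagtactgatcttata
GSTA2: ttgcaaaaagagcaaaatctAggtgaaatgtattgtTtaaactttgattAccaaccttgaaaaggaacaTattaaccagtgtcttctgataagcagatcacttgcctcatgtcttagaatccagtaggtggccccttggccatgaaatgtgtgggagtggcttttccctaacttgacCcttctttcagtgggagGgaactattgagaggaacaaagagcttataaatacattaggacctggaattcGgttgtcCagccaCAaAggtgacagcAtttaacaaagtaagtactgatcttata
Capitals mark the 12 of 300 positions at which they differ, and 96.0% are identical. Neither window has GCGTG or TGACNNNGC. The transcripts are alike too: 15.9% of the 75-base stretches of GSTA1 and 12.1% of those of GSTA2 occur in another gene, so some reads of this pair cannot be assigned.

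GSTM4, of the mu class, fell at low level. It stood at 1.78, 2.08, 2.16 and 2.75 in siRNA replicates 1 to 4, against 4.73, 4.09, 10.1 and 10.3 in NC replicates 1 to 4 (log2 change -1.29, limma adjusted p = 0.00664), without overlap and with NC replicates 3 and 4 well above NC replicates 1 and 2. Its neighbour GSTM3, far higher at 71.5, 63.5, 70.6 and 67.1 in siRNA replicates 1 to 4, against 65.7, 70.5, 84.3 and 80.5 in NC replicates 1 to 4, was not called (log2 change -0.14, limma adjusted p = 0.328) except against NC replicates 3 and 4 alone (log2 change -0.27, limma adjusted p = 0.0143). GSTO1, of the omega class that reduces dehydroascorbate, fell (log2 change -0.73, limma adjusted p = 0.0028), with 32.9 to 39.1 in siRNA libraries and 50.7 to 75.1 in NC libraries, and GSTO2 beside it was not called (log2 change 0.23, limma adjusted p = 0.3).

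MGST1, a membrane-bound transferase and peroxidase, was the highest GST or MGST gene per kilobase of exon in siRNA libraries and came after GSTA1 in NC libraries, at 73.3 in siRNA and 93.7 in NC libraries, against 37.3 in siRNA and 112 in NC libraries for GSTA1. The order in NC libraries depends on the length used. All annotated exons of MGST1 joined have 7440 bases and its longest coding transcript 1331, against 1019 on both counts for GSTA1. By transcript length MGST1 would be above GSTA1 in NC libraries too. MGST1 stood at 567, 525, 553 and 537 in siRNA replicates 1 to 4, against 624, 827, 743 and 595 in NC replicates 1 to 4. Its fall was small and passed narrowly (log2 change -0.34, limma adjusted p = 0.0415). The call was lost with the replicate number as a block (limma adjusted p = 0.0791), without NC replicate 2 or 3 and without any siRNA library (0.0614 to 0.106 over these 6 fits). MGST2 and MGST3 did not pass (log2 change -0.45, limma adjusted p = 0.0575, and log2 change 0.25, limma adjusted p = 0.186). Each was called against 1 NC pair alone, MGST2 lower against NC replicates 3 and 4 (log2 change -0.70, limma adjusted p = 0.00102) and MGST3 higher against NC replicates 1 and 2 (log2 change 0.37, limma adjusted p = 0.0107).

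GSTP1 and GSTZ1 rose. GSTP1, the pi-class enzyme often raised in tumours, stood at 112, 112, 111 and 116 in siRNA replicates 1 to 4, against 102, 87.4, 72.9 and 82.1 in NC replicates 1 to 4, a small and regular difference (log2 change 0.40, limma adjusted p = 0.0177) that missed the threshold without siRNA replicate 4 (limma adjusted p = 0.0505). GSTZ1, which isomerises maleylacetoacetate in tyrosine breakdown, had 18.3 to 23.8 in siRNA libraries and 11.1 to 14.96 in NC libraries (log2 change 0.65, limma adjusted p = 0.0055). GSTK1 and GSTT2B were not called (log2 change -0.048, limma adjusted p = 0.832, and log2 change -0.48, limma adjusted p = 0.224), and 85.4% of the 75-base stretches of GSTT2B occur in other genes. GSTT2B was lower against NC replicates 3 and 4 alone (log2 change -0.93, limma adjusted p = 0.00602).

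How many genes were called differed between the NC pairs. Against NC replicates 1 and 2 alone 20 detoxification genes were higher and 19 lower, where 29.7% of all genes were called higher and 28.1% lower. Against NC replicates 3 and 4 alone 16 were higher and 28 lower, where the shares over all genes were 33.5% and 32.4%. The same direction against both pairs was called for 15 higher and 18 lower genes, 51.6% of the 64, where 19.5% and 17.7% of all genes tested behaved so. Opposite directions against the pairs were called for 0 of the 64 genes and for 5.93% of all genes tested. NC replicates 3 and 4 both exceeded NC replicates 1 and 2 for 36 of the 64 genes, against 37.6% of all genes, and both lay below them for 8, against 33.1%. The siRNA libraries showed an order of their own: siRNA replicates 3 and 4 both exceeded siRNA replicates 1 and 2 for 39 of the 64 genes, against 26.9% of all genes, and lay below them for 3, against 25.6%. The 39 included 8 of 9 UGT genes and 10 of 13 ALDH genes. All of these 8 but UGT2A3 are UGT1A genes of a single locus with common exons, so they are not separate observations. The mitochondrial share was 5.09% and 5.59% in siRNA replicates 3 and 4 and 4.69% and 4.39% in siRNA replicates 1 and 2, and its part in this order was not tested.

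**Figure D4:**
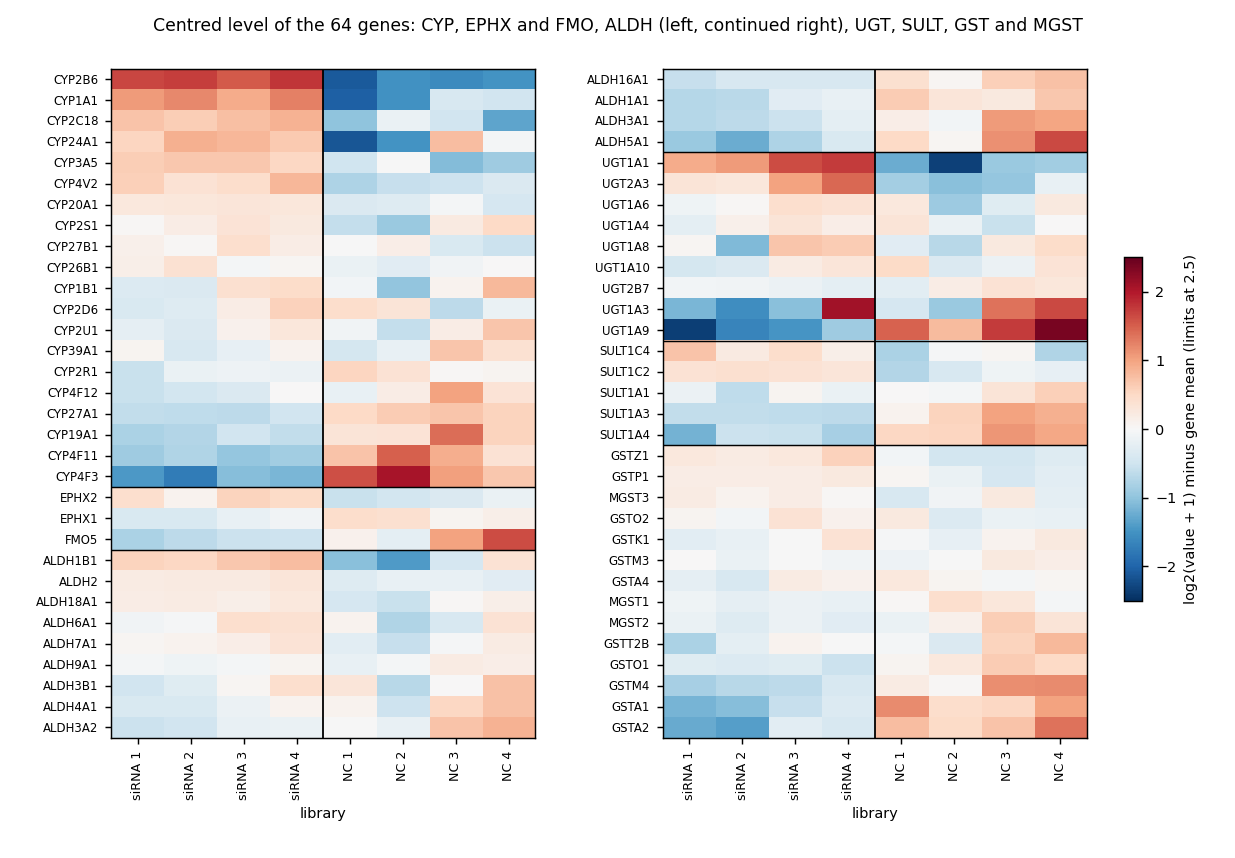
Centred log2(value + 1) of the 64 genes in each library (columns: 4 siRNA libraries at left, 4 NC libraries at right; colour limits at 2.5). Horizontal lines part CYP, EPHX and FMO, ALDH, UGT, SULT, and GST and MGST genes; columns NC 3 and NC 4 differ visibly from NC 1 and NC 2 for genes such as FMO5, ALDH5A1 and CYP24A1.

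Several genes sit in clusters, and neighbours within a cluster did not always move together. SULT1C2 and SULT1C4 on chromosome 2 both rose, and ALDH3A1 and ALDH3A2 on chromosome 17 both fell. Of the CYP4F cluster 2 of 3 fell, of the GSTA cluster 2 of 3, and of the SULT1A genes 2 of 3. The falls of SULT1A3 and SULT1A4 are not separate results, as their reads cannot be told apart. Some reads of GSTA1 and GSTA2 cannot be assigned either. The UGT1A locus held 1 rise, 1 fall and 5 genes without a call. Genes of other kinds nearby were compared as well. Within 1 Mb of CYP1A1 the median log2 change of the 27 other tested genes was -0.66, with 17 lower and 2 higher, so CYP1A1 rose among falling neighbours. Within 1 Mb of GSTA1 the median was -0.66, with 7 of 10 other genes lower and 0 higher. The median was -1.12 around ALDH1A1 (4 of 5 lower, 1 higher), -0.94 around ALDH5A1 (4 of 7 lower, 0 higher) and -0.77 around FMO5 (4 of 7 lower, 0 higher). These 4 enzymes fell beside neighbours that fell too, and the part of the region in their change was not tested. Over all genes tested 20.8% were called lower. Other called falls differed: the median was 0.36 around MGST1, 0.32 around GSTM4 and 0.14 around ALDH3A1, but -0.39 around CYP19A1 and -0.29 around ALDH16A1. Around CYP2B6 and CYP4F3 the medians of 0.018 and 0.089 were close to 0.

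Promoter windows were at hand for 50 of the 64 genes. Some genes had several windows, and a gene was counted if any of its windows held the motif. The shares therefore depend on the number of windows per gene. GCGTG, on either strand, was in a window of 17 of the 50 (34.0%), as against 40.6% of all genes in the RefSeq table and 59.0% of the genes tested. TGACNNNGC, with any base at N, was in 10 of the 50 (20%), against 16.1% of all genes and 19.6% of the genes tested. Of the 12 called higher with a window 4 had GCGTG and 4 had TGACNNNGC, and of the 18 called lower 5 had GCGTG and 4 had TGACNNNGC. Matches of the motifs did not overlap each other in these windows. Absence of the letters from a window says nothing of elements farther away.

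Redox partners, co-substrate enzymes and other drug-handling enzymes were followed on a list of 35 genes, of which 32 were tested. Of these 5 rose, 10 fell and 17 did not pass, where 21.7% of all genes tested were called higher and 20.8% lower. The summed level ran from 5776 to 6035 in siRNA libraries and from 7646 to 8377 in NC libraries without overlap. Its largest parts were NQO1 and CES1, with means of 1180 and 914 in siRNA and 1709 and 1627 in NC libraries. HMOX1, the next in siRNA libraries, ran the other way without a call (900 in siRNA and 536 in NC libraries). CBR3, a carbonyl reductase, stood at 4.88, 4.59, 5.15 and 5.21 in siRNA replicates 1 to 4, against 21.9, 20.99, 22.04 and 18.1 in NC replicates 1 to 4, 4.19-fold lower (log2 change -1.87, limma adjusted p = 1.49e-05). CBR1, its relative that reduces anthracyclines, stood at 67.3, 69.1, 68.3 and 66.2 in siRNA replicates 1 to 4, against 188, 182, 278 and 264 in NC replicates 1 to 4, 3.37-fold lower (log2 change -1.71, limma adjusted p = 7.26e-05). CYB5B, the outer mitochondrial membrane cytochrome b5, was 3.48-fold lower (log2 change -1.73, limma adjusted p = 0.000419). The groups did not overlap for any of the 3. GSR, which recycles oxidised glutathione, fell (log2 change -0.83, limma adjusted p = 0.000881), as did the carboxylesterase CES1 (log2 change -0.82, limma adjusted p = 0.000971) and the quinone reductase NQO1 (log2 change -0.53, limma adjusted p = 0.0014). POR, the reductase that supplies electrons to microsomal CYP enzymes, was not called (log2 change 0.20, limma adjusted p = 0.404), and UGDH, which makes the UDP-glucuronic acid used by UGT enzymes, passed narrowly on the lower side (log2 change -0.35, limma adjusted p = 0.0431). The UGDH call was kept in 2 of the 8 fits that left out a library (adjusted p up to 0.107) and was lost against NC replicates 1 and 2 alone (log2 change -0.15, limma adjusted p = 0.0856), and POR was higher against NC replicates 3 and 4 alone (log2 change 0.50, limma adjusted p = 0.000387).

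Of 24 transcription factors and receptors known to control these enzymes 21 were tested, and 9 rose, 3 fell and 9 did not pass. Over all genes tested 21.7% were called higher and 20.8% lower. NR5A2 (LRH-1), a nuclear receptor of bile acid and sterol genes, stood at 7.05, 8.23, 6.32 and 6.47 in siRNA replicates 1 to 4, against 0, 0.135, 0.173 and 0.418 in NC replicates 1 to 4 (log2 change 2.77, limma adjusted p = 1.06e-05). FOXA3, a hepatic forkhead factor, stood at 27.9, 26.3, 26.8 and 27.4 in siRNA replicates 1 to 4, against 5.97, 3.66, 3.402 and 4.21 in NC replicates 1 to 4 (log2 change 2.43, limma adjusted p = 1.85e-05). VDR, the vitamin D receptor, stood at 37.6, 35.2, 35.1 and 31.1 in siRNA replicates 1 to 4, against 5.71, 6.24, 8.23 and 8.197 in NC replicates 1 to 4 (log2 change 2.15, limma adjusted p = 1.97e-05). All siRNA libraries exceeded all NC libraries for each of these genes, and NR5A2 was near 0 in the NC libraries. NR5A2 reached the minimum for testing through the siRNA libraries alone, so its lack of overlap is no added support. PPARA, the fatty acid receptor (log2 change 1.06, limma adjusted p = 0.000135), NR1H4, the farnesoid X receptor (log2 change 1.76, limma adjusted p = 0.000398), and HNF4A, a master factor of hepatocytes (log2 change 0.83, limma adjusted p = 0.000901), rose as well. AHR, the aryl hydrocarbon receptor upstream of CYP1A1, was higher at 328, 321, 322 and 292 in the siRNA libraries, against 196, 176, 108 and 110.1 in the NC libraries (log2 change 1.14, limma adjusted p = 0.0021), whereas its partner ARNT was lower (log2 change -0.36, limma adjusted p = 0.0171) and its target AHRR was not called (log2 change -0.74, limma adjusted p = 0.0549) except against NC replicates 3 and 4 alone (log2 change -0.93, limma adjusted p = 0.0175). NR1I2, the pregnane X receptor known for control of CYP2B6 and CYP3A genes, was higher at a low level, 2.29 in siRNA and 0.6598 in NC libraries (log2 change 1.03, limma adjusted p = 0.00587). NR1I3, also on the list, had no values. RXRB was lower (log2 change -0.38, limma adjusted p = 0.0244, up to 0.071 with a library left out). RXRA was not called (log2 change -0.0049, limma adjusted p = 0.987). NFE2L2, which encodes NRF2, the regulator of NQO1, GSR and GSTA genes, was not called (log2 change -0.43, limma adjusted p = 0.293). It stood at 143, 149, 139 and 134 in the siRNA libraries, against 252, 333, 142 and 112 in the NC libraries, with NC replicates 1 and 2 above and NC replicate 4 below all siRNA libraries, and was lower against NC replicates 1 and 2 alone (log2 change -1.03, limma adjusted p = 3.02e-05). KEAP1, which marks NRF2 for degradation, was lower (log2 change -0.55, limma adjusted p = 0.00804). NR5A2, FOXA3, VDR, PPARA, NR1H4 and HNF4A were named for their small p, and AHR, ARNT, AHRR, NR1I2, RXRA, RXRB, NFE2L2, KEAP1, POR and UGDH after their values were seen.

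**Figure D5:**
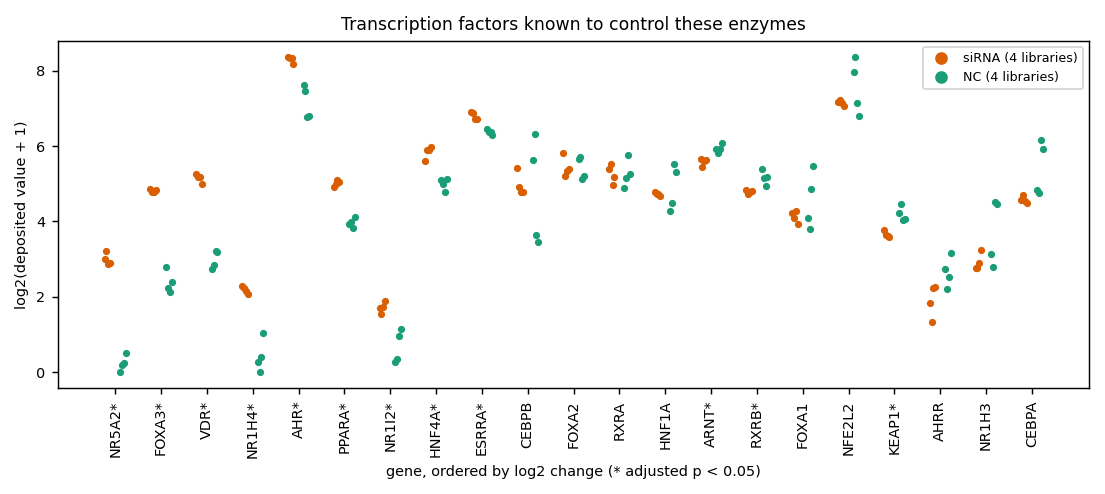
Log2(value + 1) of 21 transcription factors known to control detoxification genes, in 4 siRNA libraries (left of each tick) and 4 NC libraries (right), ordered by log2 change. Asterisks mark adjusted p under 0.05; NR5A2, FOXA3 and VDR have the largest changes, and CEBPB, not called with all libraries, spreads most among NC libraries, lower in siRNA than in NC replicates 1 and 2 and higher than in NC replicates 3 and 4.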

How the data were processed

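Poly(A) RNA of HCCLM3 cells was sequenced in 4 siRNA and 4 NC libraries with paired-end reads. The deposited table holds a normalised read signal, 1 value per gene symbol and library, which the authors had scaled for library size; the columns are headed as counts but are not whole. Every value was a whole multiple of the value of 1 read, and 100% of the values came out as whole reads within 0.02 reads. The build hg38 and the tools HTSeq 0.12.4, HISAT2, Trimmomatic, FastQC, edgeR and DESeq2 are named per the submitters' processing notes; which step used which, and whether counting used strand, is not given in the sources used here. Genes of low value had been removed before deposit: the lowest gene mean was 0.725.

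Because the values are normalised, the test was limma 3.58.1 (trend and robust, R 4.3.3) on log2(value + 1) of the deposited signal, over the 11812 genes that reached 1 in 4 or more libraries, with no term but the group. The threshold was a Benjamini-Hochberg adjusted p under 0.05. An edgeR 4.0.16 quasi-likelihood test on the recovered reads called 5002 genes. As separate cultures are not stated, p-values reflect the spread of these libraries only, and that may be technical. A floor of 3 reads covers counting error only. The procedure was run on simulated data drawn from the siRNA means, with a fixed spread between libraries and without NC pairs. That run cannot speak for calls of genes that differ between the NC pairs.

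Given in full were the 20 called genes with the largest change, the 4 most abundant of each enzyme group, all UGT1A genes and any gene with a log2 difference of at least 2 between the NC pairs, 38 genes in all. The genes, lists and rules were chosen with earlier results of these data known. Positions, exon lengths and shared exons came from GENCODE v29 (GRCh38), matched by symbol for 64 of 64 genes, and promoter windows from RefSeq GRCh38.p14. A comparison of UGT1A proteins was not analysed here. Alternatives were DESeq2 1.42.0, edgeR, limma-voom, other scalings, pseudocounts, filters and thresholds, a block for the replicate number, and fits without each library or NC pair.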

Additional observations from a re-analysis of the deposited data

Results flagged for a closer look

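In 76 sets of 4 libraries, the siRNA or the NC values of a named gene, a single library far from the other 3 was looked for with Dixon's test, which by chance marks about 1 set in 20. It marked 2. UGT1A3 in siRNA replicate 4 stood at 16.5, against 0.855, 0.390 and 0.987 in siRNA replicates 1 to 3, and rested on 456 reads. CYP19A1 in NC replicate 3 stood at 4.53, against 1.63, 1.64 and 2.09 in the other NC libraries, and rested on 209 reads.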

How the results depend on the processing

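Under 22 alternatives the detoxification genes called higher numbered 11 to 20 and those called lower 15 to 28, all within 1.5 times the 15 and 20 of the report. The lowest came with a filter of 5 in place of 1 (11 higher, 18 lower), an adjusted p under 0.01 or a minimum change of 1.2-fold (12 and 15 in both), and the highest against the NC pairs alone (20 and 19 for replicates 1 and 2, 16 and 28 for replicates 3 and 4). Over all genes the count moved by over 1.5 times under an adjusted p of 0.01 (3034), a minimum change of 1.2-fold (2675) and with NC replicates 3 and 4 as the only NC libraries (7782), against 5015. Of the 35 calls 25 (11 higher, 14 lower) were kept in every alternative in which the gene was tested, and 0 reversed. Of 828 values for named genes 780 kept direction and side of the threshold, 32 lost a call, 4 gained it and 12 changed sign. All 12 were of genes without a call: CYP1B1 (-0.0053 with edgeR and DESeq2 size factors, -0.0052 with DESeq2, -0.23 to 0.37 leaving out a library, -0.40 against NC replicates 3 and 4 alone), UGT1A8 (-0.072 to 0.52 leaving out a library, -0.28 against NC replicates 3 and 4 alone), and, against NC replicates 1 and 2 alone, UGT1A3 (0.26) and GSTM3 (0.00085). The cause was not tested. With the replicate number as a block 14 genes were higher and 18 lower (4546 of all genes), and CYP2R1, MGST1 and SULT1C4 lost their call. Same-numbered siRNA and NC libraries deviated together with correlations of -0.068, 0.15, -0.066 and 0.16, and not every library was closest to its own number, so the number was not taken to pair them. Depth limits genes such as CYP19A1, with 6 to 16 reads in siRNA libraries, and CYP24A1, with 4 reads in NC replicate 1. Exons shared with another gene limit the UGT1A, SULT1A3, SULT1A4, CYP2C18 and ALDH4A1 values, and sequence shared with related genes the SULT1A, GSTA1, GSTA2, GSTT2B and CYP2D6 values.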

Other observations

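The level per kilobase of exon put the enzymes in a different order in each group. In siRNA libraries the order was ALDH1A1 at 411, EPHX1 at 104, UGT1A10 at 76.1, MGST1 at 73.3 and ALDH3A1 at 72.1. In NC libraries it was ALDH1A1 at 781, ALDH3A1 at 159.6, EPHX1 at 151, GSTA1 at 112 and MGST1 at 93.7. UGT1A1 averaged 40.7 in siRNA and 6.42 in NC libraries on this scale, and CYP27A1 11.5 and 26.6. CYP2B6, the gene with the largest rise, averaged 4.72 in siRNA and 0.229 in NC libraries. Exon lengths are those of all annotated exons joined, so a gene with a long rarely used exon reads low. MGST1 is such a case, with 7440 joined bases and a longest coding transcript of 1331. By transcript length it would stand higher in both orders.

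Other drug-handling genes changed too. MAOB, which oxidises amines, rose (log2 change 1.17, limma adjusted p = 0.00165), and the carboxylesterase CES2 fell (log2 change -1.56, limma adjusted p = 0.00721), with NC replicates 3 and 4 at 49.7 and 60.7 and NC replicates 1 and 2 at 21.4 and 19.7. Of the glutathione synthesis enzymes GCLC fell (log2 change -0.59, limma adjusted p = 0.0193), GSS rose (log2 change 0.41, limma adjusted p = 0.0184) and GCLM was not called (log2 change -0.56, limma adjusted p = 0.0678) except against NC replicates 1 and 2 alone, where it was lower (log2 change -0.93, limma adjusted p = 6.15e-05). The haem oxygenase gene HMOX1 stood at 961, 879, 850.3 and 911 in siRNA replicates 1 to 4, against 855, 698, 249 and 341 in NC replicates 1 to 4, and was not called (log2 change 0.92, limma adjusted p = 0.0642). HMOX1 was higher against NC replicates 3 and 4 alone (log2 change 1.62, limma adjusted p = 1.41e-06) and not apart from NC replicates 1 and 2 (log2 change 0.22, limma adjusted p = 0.0664). These genes were chosen after their values were seen.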
